A study of Rattus norvegicus with 24 samples.

Results

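The mitochondrial ribosomal protein genes of rat INS-1E cells were taken as the annotated genes whose symbol begins with Mrpl or Mrps followed by a digit. They number 73 of the 14217 genes tested, 46 with an Mrpl symbol, named for the large subunit, and 27 with an Mrps symbol, named for the small. The symbol was not checked against the subunit in which each protein lies. Where a gene has several probe sets, the brightest one on average was used. The rule reads gene symbols only. INS-1E is a clonal rat insulinoma line that makes insulin and is used as a model of the pancreatic beta cell. Its RNA was measured on 24 Affymetrix arrays, with 3 arrays in each of 8 groups. At 6 h and again at 12 h the groups were cytokines with 10 uM BRD0476, cytokines with the vehicle DMSO, BRD0476 without cytokines, and DMSO without cytokines. The cytokines were IL-1beta at 10 ng/ml, IFN-gamma at 50 ng/ml and TNF-alpha at 25 ng/ml. BRD0476 is a small molecule known here by its code name.

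The mitochondrial ribosome translates the messages of mitochondrial DNA, which in mammals encode core subunits of the respiratory chain and of ATP synthase. Its ribosomal RNAs are also made from mitochondrial DNA, whereas all of its proteins are encoded in the nucleus, made in the cytosol and imported. Some of these proteins descend from bacterial ribosomal proteins and others were added in the mitochondrial lineage. In beta cells, oxidative phosphorylation links glucose use to insulin release, so the supply of mitochondrially encoded subunits bears on the cell's main function.

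All 73 genes lay well within the measured range, with means over all arrays between 7.71 and 12.13 on the log2 intensity scale and a median of 10.19, while the median of all values was 5.52. Array medians lay between 5.49 and 5.57, and the correlation between arrays of one group was 0.992 to 0.999. The labels do not say whether the 3 arrays of a group came from separate cultures, so the p-values measure the spread between arrays, which may be technical. The 10 beta-cell markers measured were all above the median of all values, and 27 of 31 markers of other cell types were under it. The exceptions were Gcg, Thy1, Pdgfra and Kdr. With so many genes called, values were read against the share of all genes called in the same comparison. In bulk RNA, fewer cells and less RNA per cell cannot be told apart.

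Cytokines at 6 h moved the genes of the mitochondrial ribosome in both directions. In cells with DMSO, 27 of the 73 rose and 23 fell relative to cells without cytokines, and 23 were not called (limma, adjusted p under 0.05 over all genes, n = 3 arrays per group). The median difference over the 73 was -0.0042 on the log2 scale, against 0.0039 over all genes tested. Over all genes, 51.7% were called, and among the 9774 genes that were not dim 68.3% were called, 31.1% up and 37.1% down, so the members' 68.493% is near what genes of measurable level showed. Mrps17, Mrpl49 and Mrps21 fell furthest, to ratios of 0.471, 0.486 and 0.496 on the linear scale. Others, led by Mrpl38 at a ratio of 2.41 and Mrps18b at 1.81, rose in the same arrays. Genes of the same particle moved in opposite directions in the same cells.

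Among the small-subunit genes, Mrps17 encodes a homologue of a bacterial protein that binds ribosomal RNA. Its log2 intensity was 10.18, 10.02 and 10.16 with cytokines and DMSO at 6 h, against 11.24, 11.28 and 11.09 with DMSO alone. All cytokine arrays lay about a full log2 unit below the others, a difference of -1.09 ± 0.07 (SE, adjusted p = 3.79e-11). Mrps21, the counterpart of bacterial S21, had 9.96, 9.76 and 9.93 with cytokines and 10.95, 10.91 and 10.83 without, a difference of -1.01 ± 0.06 with no overlap (adjusted p = 8.64e-12). Mrps12 belongs to the decoding site, where the bacterial protein S12 monitors the match of codon and anticodon. It had 9.54, 9.55 and 9.84 with cytokines, against 10.58, 10.52 and 10.52 with DMSO alone, and fell by 0.89 ± 0.08 (adjusted p = 1.12e-08). Mrps11, whose bacterial homologue lies on the platform of the small subunit, also fell, with a difference of -0.80 ± 0.06. Mrps33, a protein with no bacterial homologue, differed by -0.68 ± 0.06.

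The deepest fall in the large subunit was that of Mrpl49, which has no bacterial homologue. It had 9.43, 9.26 and 9.43 with cytokines at 6 h, against 10.38, 10.43 and 10.43 with DMSO alone. The difference was -1.04 ± 0.06 (adjusted p = 7.81e-12), and a second probe set of the same gene fell by 0.95. Mrpl20, whose bacterial homologue is needed early in the assembly of the large subunit, had 9.19, 9.20 and 9.56 with cytokines and 10.19, 9.99 and 10.17 without. The highest cytokine array was still below every array without cytokines, and the difference was -0.81 ± 0.09. Mrpl41, another protein of the mitochondrial lineage, had 10.66, 10.63 and 10.79 with cytokines and 11.51, 11.38 and 11.60 without, with a difference of -0.81 ± 0.06. All 4 probe sets of Mrpl51 were lower with cytokines, by 0.52 to 0.61 on the log2 scale.

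Rises were led by Mrpl38, a protein of the central protuberance of the large subunit with no bacterial homologue. It had 8.89, 8.87 and 7.84 with cytokines at 6 h, against 7.32, 7.15 and 7.32 with DMSO alone. The groups did not overlap, but the third cytokine array lay about a unit under the others, and the SE of the difference of 1.27 was the widest of the set at 0.23 (adjusted p = 8.18e-05). Mrps18b, one of several mammalian relatives of bacterial S18, read 10.24 on each cytokine array, against 9.35, 9.45 and 9.35 without, a difference of 0.86 ± 0.06 (adjusted p = 1.29e-10). Mrpl15 and Mrpl19, large-subunit proteins with bacterial homologues, both rose by 0.60, with SEs of 0.06 and 0.07. Mrps34, a small-subunit protein of the mitochondrial lineage, rose by 0.57 ± 0.06. Mrpl30 rose by 0.56 ± 0.09, Mrpl1, of the stalk beside the exit site for transfer RNA, by 0.55 ± 0.08, and Mrpl47 by 0.51 ± 0.08. None of these had overlapping groups.

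**Figure D1:**
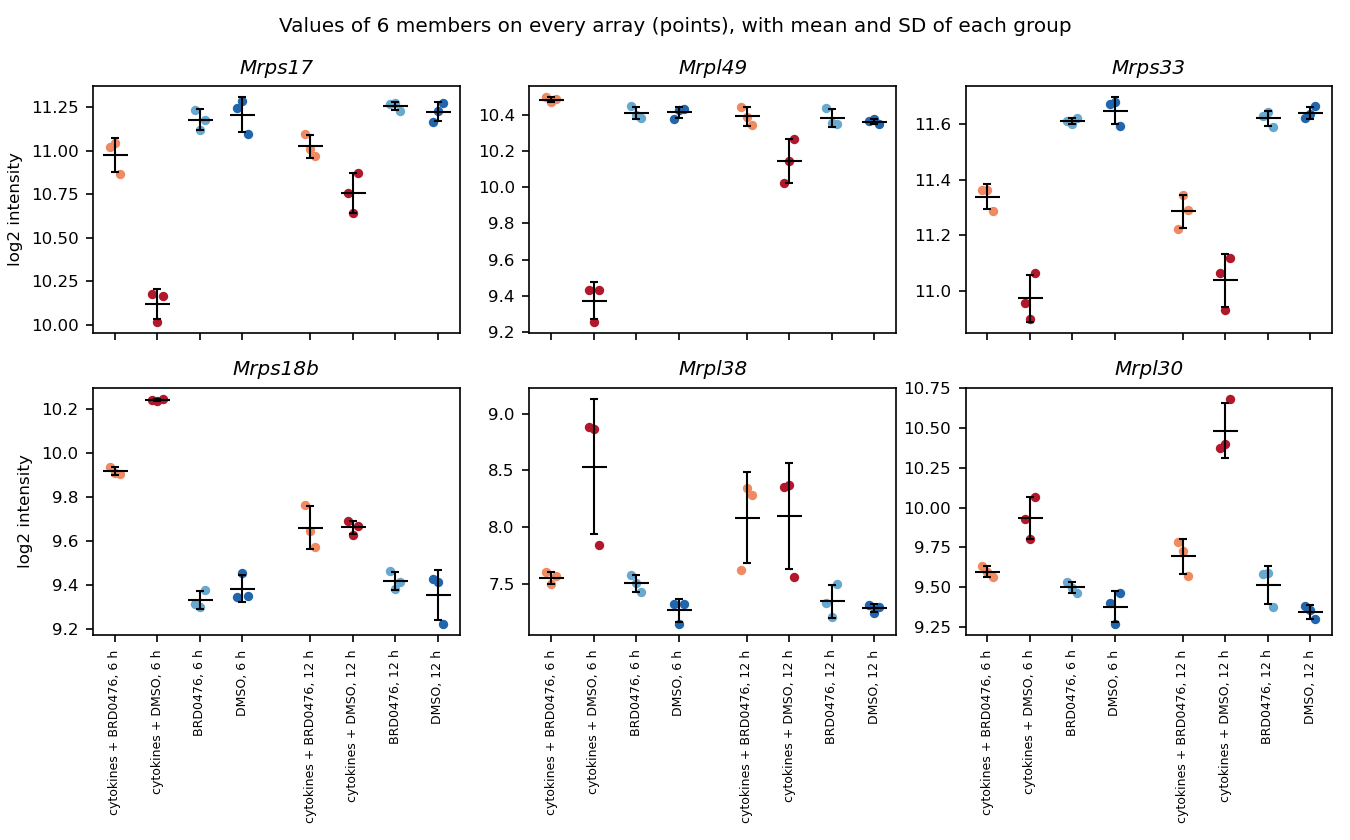
Log2 intensity of 6 genes on every array (points), with the mean and SD of each group of 3 (bars), for 6 h on the left and 12 h on the right of each panel. Mrps17, Mrpl49 and Mrps33 were lowest with cytokines and DMSO at 6 h, Mrps18b and Mrpl38 highest there, and Mrpl30 highest with cytokines and DMSO at 12 h. For Mrpl38 the arrays of the cytokine groups are far apart.

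Both symbol classes and both ancestries held genes that rose and genes that fell, as did genes not dim at large (31.1% up and 37.1% down). Of the 46 Mrpl genes 19 rose (41.304%) and 16 fell (34.783%) at 6 h, with a median of 0.03. Of the 27 Mrps genes 8 rose (29.630%) and 7 fell (25.926%), with a median of -0.08. Among the 43 members with a bacterial homologue 16 rose (37.209%) and 12 fell (27.907%). Among the 30 without one 11 rose (36.667%) and 11 fell (36.667%). No test of the difference between these classes was made. The remaining calls were smaller, down to 0.17 in size for Mrpl55. Of further genes chosen for their known roles, Mrpl3, which lies near the catalytic centre, rose by 0.20 ± 0.06 (adjusted p = 0.004988; 0.08144 in a fit of only the arrays compared), whereas Mrpl44, Mrps16 and Mrps22 had differences of 0.12, 0.05 and -0.13 that did not pass the test (adjusted p = 0.2195, 0.4814 and 0.2371). Mrps30 stood at -0.00 ± 0.05, with arrays of 10.48, 10.50 and 10.48 with cytokines and 10.47, 10.49 and 10.50 without.

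Several genes have more than one probe set, and these did not always give the same answer. For Mrpl12, the stalk protein that recruits translation factors, the chosen probe set differed by -0.03 ± 0.07, whereas a second and dimmer one fell by 1.15 ± 0.09 in a fit over all named probe sets (adjusted p = 1.5e-09). The mean of its probe sets fell by 0.59 (adjusted p = 2.82e-07). The chosen probe set of Mrpl37 rose by 0.40 at 6 h and a second one by 0.51, while a dim one with a mean of 4.23, under the median of all values, fell by 0.30. For Mrpl40 the chosen probe set rose by 0.45 and another, with a mean of 6.38, fell. Of the 24 further probe sets of the members, 9 had the same call as the chosen one and 2 the opposite call in this comparison. A value given for Mrpl12 or Mrpl40 is that of the chosen probe set alone.

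Promoter sequences from RefSeq (GRCr8) were available for 59 of the 73 genes and are shown for genes at either end of the 6 h response. The start site of the promoter table is that of a single transcript and lies inside the RefSeq gene record for 27 of the 59, by over 50 bases for 16. The printed runs are therefore the bases of the table's window that lie before the gene record and outside that of a gene on the opposite strand. Capitals mark matches on either strand to letters used for NRF1 (GCGCNTGCG), the ETS family (CCGGAAG), YY1 (AANATGGCG) or Sp1 (GGGCGG). Mrps17 and Mrpl49 are shown as the deepest falls, and Mrps18b and Mrpl30 as the largest rises among members with a promoter record. Some larger rises, such as that of Mrpl38, had no such record.
Mrps17 (chr12:32587935-32588062, minus strand): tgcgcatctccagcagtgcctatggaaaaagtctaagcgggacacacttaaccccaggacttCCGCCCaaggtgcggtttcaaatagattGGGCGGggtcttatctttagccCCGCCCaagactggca
Mrpl49 (chr1:212779365-212779428, minus strand): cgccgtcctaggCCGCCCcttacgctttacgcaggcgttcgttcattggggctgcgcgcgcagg
Mrps18b (chr20:2842756-2842977, plus strand): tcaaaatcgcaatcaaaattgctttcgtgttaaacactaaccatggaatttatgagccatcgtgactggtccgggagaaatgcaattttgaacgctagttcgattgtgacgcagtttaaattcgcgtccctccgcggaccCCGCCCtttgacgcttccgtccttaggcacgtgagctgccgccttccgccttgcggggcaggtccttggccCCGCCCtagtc
Mrpl30 (chr9:47621034-47621225, plus strand): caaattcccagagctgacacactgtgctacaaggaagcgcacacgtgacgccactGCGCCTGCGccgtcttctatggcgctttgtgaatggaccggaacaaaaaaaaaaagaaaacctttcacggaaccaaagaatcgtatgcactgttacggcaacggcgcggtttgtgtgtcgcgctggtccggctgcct
The capitals in Mrps17 are 3 Sp1 matches and in Mrpl49 a single one, while Mrps18b holds 2 Sp1 matches. Mrpl30 has an NRF1 match 137 to 129 bases before its gene record.

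Over the table's windows, from 250 bases before to 50 after its start site, the ETS letters were found in 33.898% of the 59 members, against 15.069% of the 11733 promoters of genes tested. For YY1 the shares were 20.339% and 5.344%, for NRF1 20.339% and 11.259%, and for Sp1 50.847% and 57.487%. These factors are known to bind promoters of nuclear genes for mitochondrial proteins. NRF1 letters stood in 6 of the 20 members with a record that rose at 6 h, in 2 of the 22 that fell and in 4 of the 17 not called. YY1 letters stood in 5, 1 and 6 of the same classes. For the cytokine side, STAT letters (TTCNNNGAA) stood in 11.864% of members and 6.989% of genes tested, IRF letters (GAAANNGAA) in 15.254% and 7.185%, and NF-kappaB letters (GGNNTTNCC) in 13.559% and 16.714%. The shares depended on the letters: with 1 further letter the members' share was 15.254% for NRF1, 5.085% for IRF and 0.000% for NF-kappaB, against 8.489%, 2.992% and 5.190% of genes tested. These are counts of letters in a window and were not tested.

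By the promoter table's start sites, a head-to-head neighbour within 1000 bases was found for 17 of the 59 members (28.814%), against 6.990% of 18999 protein-coding genes. The 18999 were not limited to genes tested or by level, whereas no member was dim, and the difference was not tested. Mrpl46 and Mrps11 are each other's neighbour, and both count among the 17. Mrpl46 and Mrps11, a large-subunit and a small-subunit gene, lie head to head on opposite strands, with 234 bases between the start sites of the promoter table and 15 between the ends of their gene records. With cytokines at 6 h Mrpl46 had 9.21, 9.15 and 9.25, against 8.97, 8.67 and 8.94 with DMSO alone, a rise of 0.35 ± 0.07 (adjusted p = 0.0003832). Mrps11 had 8.77, 8.64 and 8.70 with cytokines, against 9.54, 9.47 and 9.50 with DMSO alone (adjusted p = 4e-10). Both genes were free of overlap and moved in opposite directions.

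By the same start sites Mrps18b lies 588 bases from Ppp1r10, which encodes a nuclear regulatory subunit of protein phosphatase 1. Ppp1r10 averaged 6.40 with cytokines and 8.27 with DMSO alone at 6 h, and fell by 1.87 ± 0.10 while Mrps18b rose. At 12 h both rose, Ppp1r10 by 0.38 ± 0.10 and Mrps18b by 0.31 ± 0.06. Mrpl30 lies 194 bases from Mitd1, a gene for a protein of the last step of cell division. Mitd1 averaged 9.59 with cytokines and 7.16 with DMSO alone, and rose by 2.43 ± 0.10 together with Mrpl30. Mrpl47 rose while its neighbour Ndufb5, a subunit of respiratory complex I, fell by 0.61 ± 0.07. Mrpl51 and Ncapd2, a subunit of condensin, both fell, Ncapd2 by 1.15 ± 0.11. Of the 13 pairs with a measured neighbour, 4 had both genes called in the same direction (30.8%) and 5 in opposite directions (38.5%), against 25.7% and 15.7% of all 451 head-to-head pairs tested. The 451 pairs were not limited by level and can hold dim genes, which are called less often, whereas no member was dim. The difference between these shares was not tested.

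**Figure D2:**
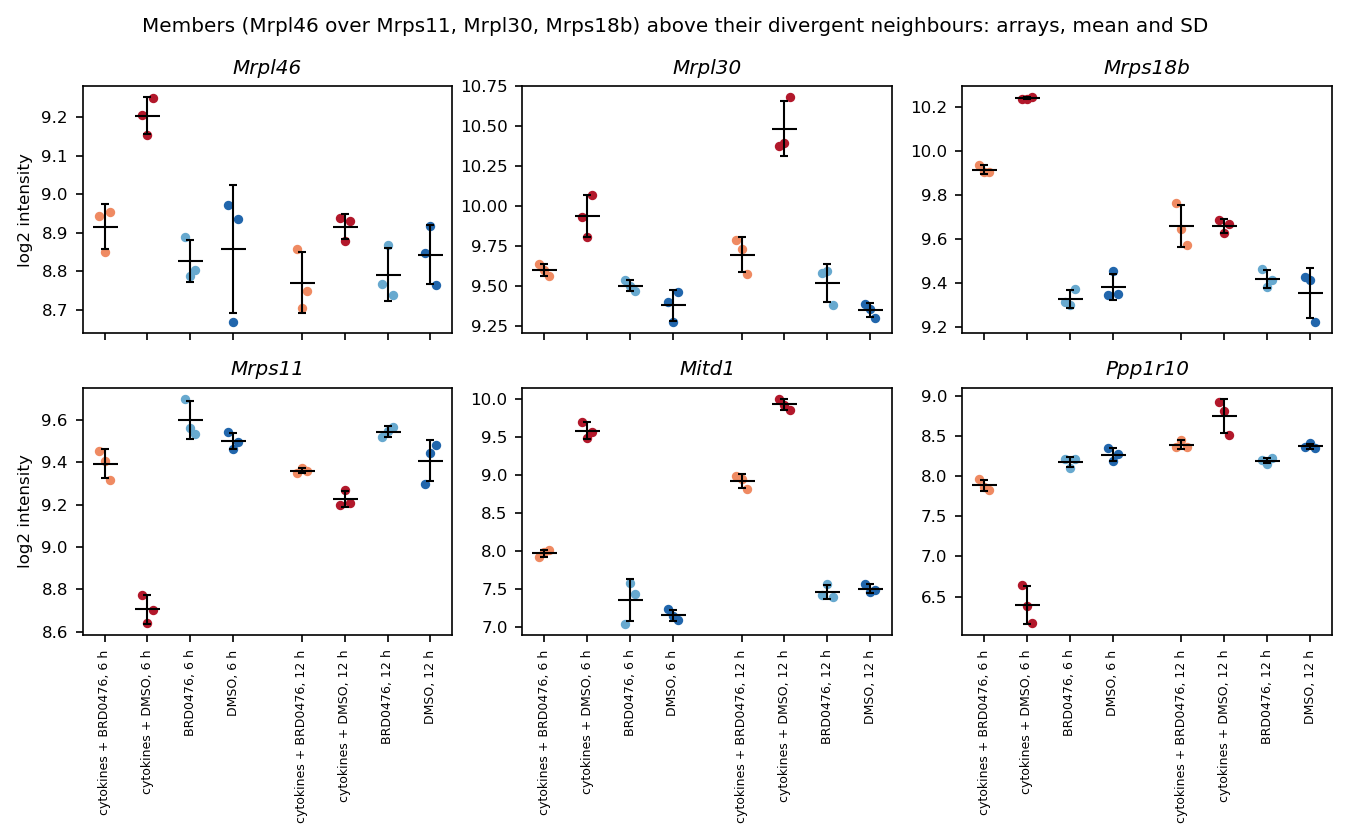
Log2 intensity of 3 members (upper row) and of the gene that starts head to head with each (lower row), on every array, with mean and SD of each group of 3. With cytokines and DMSO at 6 h, Mrpl46 and Mrps18b were high where Mrps11 and Ppp1r10 were low, while Mrpl30 and Mitd1 were both high at 6 h and at 12 h.

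At 12 h with cytokines and DMSO, 14 of the 73 rose and 25 fell relative to DMSO alone (limma, n = 3 per group), with 45.9% of all genes called and 61% of those not dim, 19.8% up and 41.2% down. The median difference was -0.10, against -0.04 over all genes, dim ones included. Falls were called for 34.247% of members and rises for 19.178%, beside 41.2% and 19.8% of genes not dim. The difference between these shares was not tested. Mrpl30, a protein of the large subunit with a bacterial homologue, stood out on the upper side. It had 10.37, 10.40 and 10.68 with cytokines, against 9.39, 9.36 and 9.30 with DMSO alone, a difference of 1.14 ± 0.09 and a ratio of 2.20 (adjusted p = 5.7e-10). Mrpl39, of the mitochondrial lineage, had 10.38, 10.56 and 10.63 with cytokines and 9.82, 9.87 and 9.82 without, and rose by 0.69 ± 0.06 (adjusted p = 1.26e-08). Mrps34 had 10.97, 10.84 and 11.02 with cytokines and 10.32, 10.43 and 10.38 without, a rise of 0.57 ± 0.06. Cytokine arrays of these 3 genes lay wholly above the others. Mrpl38 rose by 0.81 ± 0.23, with arrays of 8.36, 8.37 and 7.56 against 7.31, 7.24 and 7.29, so that again the third cytokine array was low. Mrpl14, Mrps18b, Mrpl3 and Mrpl17 rose by 0.36, 0.31, 0.26 and 0.25.

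The falls at 12 h were led by Mrps33, with 11.06, 10.93 and 11.12 with cytokines, against 11.62, 11.64 and 11.66 with DMSO alone. It fell by 0.60 ± 0.06 (adjusted p = 2.24e-08). Mrpl34, the counterpart of a small bacterial large-subunit protein, had 9.16, 9.16 and 9.21 with cytokines and 9.70, 9.65 and 9.63 without, a difference of -0.49 ± 0.06. Neither gene had overlapping groups. Mrps17 and Mrpl28 both fell by 0.46, with SEs of 0.07 and 0.06, and Mrps12 fell by 0.44 ± 0.08. Mrps31, Mrps24 and Mrpl42 differed by -0.40, -0.35 and -0.31. For Mrps24 the mean of the gene's probe sets gave -0.21 in place of -0.35.

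The comparisons at 6 h and 12 h share no arrays, and 29 members were called the same way in both (39.7%), against 31.4% of all genes and 43.2% of those not dim. Among them, 14 were higher at both times, including Mrpl30, Mrpl38, Mrpl39, Mrps18b and Mrps34, and 15 were lower at both, including Mrpl49, Mrps12, Mrps17, Mrps21 and Mrps33. A further 3, Mrpl2, Mrpl36 and Mrps27, were lower at 12 h and higher at 6 h, and calls in opposite directions were made for 4.11% of members, 3.41% of all genes and 4.82% of those not dim. Mrpl2, whose bacterial homologue lies near the catalytic centre, had 8.48, 8.47 and 8.54 with cytokines at 12 h, against 8.73, 8.70 and 8.71 with DMSO alone. At 6 h it had 9.10, 8.93 and 9.08 with cytokines, against 8.69, 8.61 and 8.69 with DMSO alone. The cytokine arrays of Mrpl2 lay wholly below the others at 12 h and wholly above them at 6 h. Mrpl36 differed by -0.26 at 12 h and 0.30 at 6 h, and Mrps27 by -0.25 at 12 h and 0.23 at 6 h. The 12 h fall of Mrps27 rests in part on a single low array of cytokines with DMSO, a group with an SD of 0.27. Neither time gave a call for 16 members (21.9%), against 37.2% of all genes and 18.8% of those not dim.

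**Figure D3:**
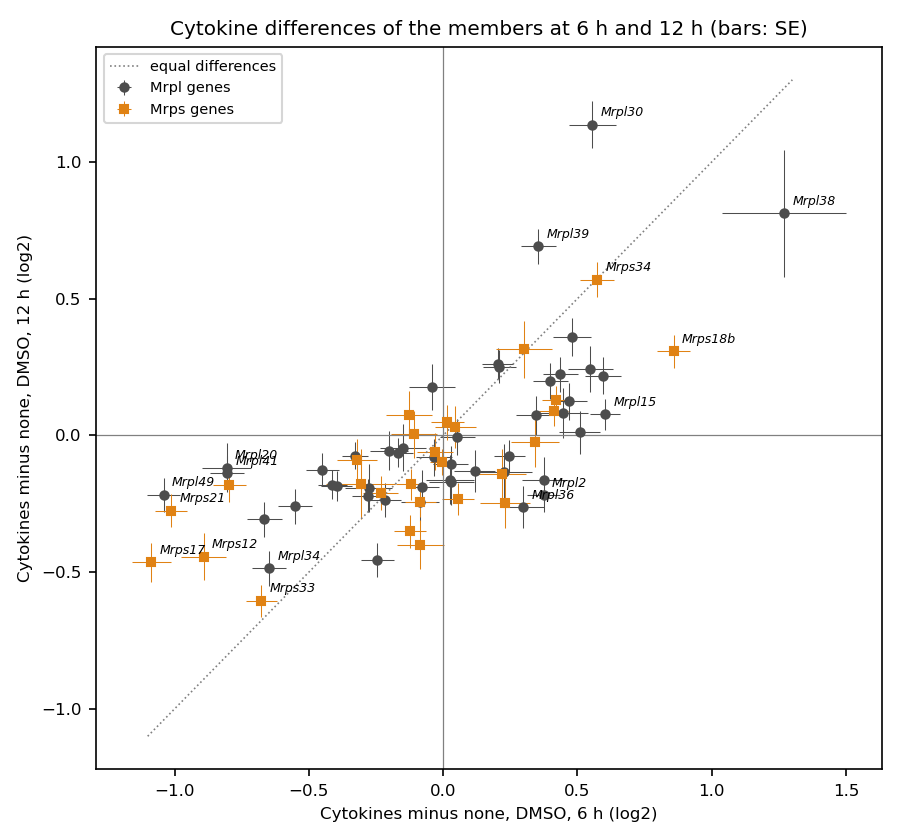
Log2 difference of each of the 73 genes with cytokines against none in DMSO, at 6 h (horizontal axis) and 12 h (vertical axis), with bars of 1 SE; circles are Mrpl and squares Mrps genes. Most of the deep falls at 6 h lie above the dotted line of equal differences, being shallower at 12 h, while Mrpl30 and Mrpl39 lie above it with a larger rise at 12 h.

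The cytokine effect itself differed between the times for 30 members, 14 upward and 16 downward (28.8% of all genes and 39.4% of those not dim, 16.1% up and 23.3% down). A positive value means a higher cytokine effect at 12 h than at 6 h. Mrpl49 fell by 0.22 at 12 h and by 1.04 at 6 h, and the difference of the effects was 0.82 ± 0.09 (adjusted p = 4.33e-07). Mrps21, Mrpl20 and Mrpl41 differed by 0.74, 0.69 and 0.67. Mrps33 and Mrps34 had near equal effects at both times and were not called here. In the downward direction, Mrpl2, Mrpl36, Mrps18b and Mrpl43 differed by -0.59, -0.56, -0.55 and -0.54.

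Addition of BRD0476 to cytokines at 6 h gave higher values for 32 members and lower values for 16, relative to cytokines with DMSO (44% of all genes were called and 59.5% of those not dim, 34.1% up and 25.3% down). The median difference over the 73 was 0.0898, against 0.0034 over all genes, dim ones included. It lay at 0.044 without replicate 2 and at 0.1396 without replicate 3 of cytokines with DMSO. This comparison shares its cytokine and DMSO arrays with that of cytokines against none, so the values are set side by side and are not independent. Mrpl49 had 10.50, 10.47 and 10.48 with cytokines and BRD0476, against 9.43, 9.26 and 9.43 with cytokines and DMSO, a difference of 1.11 ± 0.06 and a ratio of 2.16 (adjusted p = 7.92e-12). The arrays without cytokines lay between 10.38 and 10.45 for this gene. Mrps17 had 11.02, 11.04 and 10.87 with BRD0476 against 10.18, 10.02 and 10.16, a difference of 0.86 ± 0.07, and stayed under its lowest array without cytokines, 11.09. Mrps12 rose by 0.97 ± 0.08, Mrps21 by 0.88 ± 0.06, Mrpl41 by 0.79 ± 0.06, Mrpl20 by 0.76 ± 0.09, Mrpl42 by 0.70 ± 0.07 and Mrps11 by 0.69 ± 0.06. Each had all 3 arrays with BRD0476 above all 3 with DMSO.

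Mrpl38 was lowest relative to cytokines alone, with 7.60, 7.50 and 7.56 with cytokines and BRD0476, against 8.89, 8.87 and 7.84 with cytokines and DMSO. The difference was -0.98 ± 0.23 (adjusted p = 0.001469). Mrpl19 had 9.75, 9.74 and 9.70 against 10.37, 10.13 and 10.31, and fell by 0.54 ± 0.07. Mrps18b had 9.94, 9.91 and 9.90 with BRD0476 against 10.24 on each array without it, a fall of 0.32 ± 0.06, and stayed above every array without cytokines, of which the highest was 9.45. Mrpl1, Mrps34, Mrpl47, Mrpl30 and Mrpl15 fell by 0.46, 0.40, 0.36, 0.34 and 0.31. Mrpl12 and Mrps22 rose by 0.27 ± 0.07 and 0.30 ± 0.09, and Mrps16 by 0.16 ± 0.06. The mean of the probe sets of Mrpl12 rose by 0.70. The call of Mrps22 was lost with the mean of its probe sets (0.14, adjusted p = 0.1805). That of Mrps16 was lost without replicate 1 of cytokines with BRD0476 (0.09, adjusted p = 0.2335), without replicate 1 or 2 of cytokines with DMSO (adjusted p = 0.0664 and 0.1216), with centred arrays (0.08597) and in a fit of only these arrays (0.1744). The call of Mrps22 was also lost without replicate 2 of cytokines with DMSO (adjusted p = 0.0526). The chosen probe set of Mrpl50 fell while another of its probe sets rose.

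At 12 h with cytokines, 18 members were higher and 6 lower with BRD0476 than with DMSO (26.9% of all genes and 36.8% of those not dim, 22.9% up and 13.9% down). The median difference was 0.09, against 0.04 over all genes, dim ones included. Mrpl30 had 9.78, 9.73 and 9.57 with BRD0476, against 10.37, 10.40 and 10.68 with DMSO, a difference of -0.79 ± 0.09 (adjusted p = 3.99e-07). Mrps34 had 10.52, 10.52 and 10.53 against 10.97, 10.84 and 11.02, a difference of -0.42 ± 0.06. In both genes the groups were well apart. Mrpl39, Mrpl3, Mrpl1 and Mrpl19 were the others to fall, by 0.30, 0.29, 0.25 and 0.23.

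Rises with BRD0476 at 12 h were small. Mrps27, a pentatricopeptide repeat protein of the small subunit, had 7.76, 7.79 and 7.74 with BRD0476, against 7.54, 7.50 and 7.06 with DMSO, and rose by 0.40 ± 0.09 (adjusted p = 0.002525). The third DMSO array was far below the others, and without it the difference was 0.24 (adjusted p = 0.01441). Mrps12 and Mrps2 rose by 0.33, Mrpl12 by 0.28, Mrpl16, Mrps21 and Mrps17 by 0.27, and Mrpl51 by 0.26. For Mrps2 the mean of its probe sets gave 0.05 (adjusted p = 0.888). The call of Mrpl16 was lost without any one of 5 arrays, with 0.16 without replicate 2 of cytokines with DMSO (adjusted p = 0.2016). Among the other members named at this time, Mrps2 lost its call without replicate 3 of cytokines with BRD0476 (0.25, adjusted p = 0.05096) and Mrps17 without replicate 2 of cytokines with DMSO (0.21, adjusted p = 0.05376). Mrpl19 lost it without replicate 3 of cytokines with BRD0476 or replicate 1 of cytokines with DMSO (adjusted p = 0.07628 and 0.07656). Mrpl1 lost it without replicate 2 or 3 of either group (-0.26 to -0.17, adjusted p between 0.0552 and 0.1896), and with quantile normalization (0.05505). In a fit of only the 6 arrays compared, 3 members were called at 12 h, all lower and Mrps27 not among them, against 24 with the spread taken from all arrays.

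Without cytokines, BRD0476 gave few calls. At 6 h limma called 0 of the 73 (3.53% of all genes), with 5 at an unadjusted p under 0.05, all higher (6.85%, against 18.6% of genes not dim in either direction and 9.71% higher), and differences between -0.13 and 0.27. At 12 h it called Mrps27 alone (4.66% of all genes, 2.02% up), with 10 members at an unadjusted p under 0.05, all higher (13.7%, against 20.3% of genes not dim in either direction and 9.85% higher). Mrps27 had 8.10, 8.14 and 8.18 with BRD0476 alone, against 7.56, 7.70 and 7.58 with DMSO alone, a rise of 0.53 ± 0.09 without overlap (adjusted p = 0.001251). The mean of its probe sets rose by 0.34, which did not pass the test (adjusted p = 0.05743). With array weights, 1 and 10 members were called at 6 and 12 h. Between 12 h and 6 h in DMSO alone, Mrps34 was the one member called (1.67% of all genes, 1.21% down). It had 10.32, 10.43 and 10.38 at 12 h against 10.64, 10.65 and 10.61 at 6 h, a fall of 0.26 ± 0.06 (adjusted p = 0.04652). That call was lost without any one of these 6 arrays (adjusted p between 0.09148 and 0.2226), and the count was then 0, with 3 members at an unadjusted p under 0.05 in the full fit (4.11%, against 13.3% of genes not dim).

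The cytokine effect differed between BRD0476 and DMSO, as an interaction, for 34 members at 6 h, 22 upward and 12 downward (33.2% of all genes and 45.5% of those not dim, 26.3% up and 19.1% down). Here a positive value means a higher cytokine effect with BRD0476. Mrpl49 led with 1.11 ± 0.09 (adjusted p = 4.52e-09), and Mrps17, Mrps12 and Mrps21 followed with 0.89, 0.83 and 0.77. On the other side Mrpl38 had -1.22 ± 0.33, Mrpl19 -0.47, Mrpl30 -0.46 and Mrpl1 -0.40. At 12 h 6 members were called (15.3% of all genes and 21.1% of those not dim, 11.9% up and 9.22% down). They were Mrpl30 at -0.96 ± 0.12, Mrpl39 at -0.45, Mrps34 at -0.35 and Mrpl3 at -0.29, and upward Mrpl34 at 0.28 and Mrps33 at 0.27. The calls of Mrpl34 and Mrps33 were lost with centred arrays (adjusted p = 0.1332 and 0.0673), with only the arrays compared (0.05291 and 0.07134), for Mrpl34 with quantile normalization (0.08335), and when single arrays were left out. Mrpl34 lost it without any of 9 of the 12 arrays (0.23 to 0.29, adjusted p between 0.05081 and 0.1145) and Mrps33 without any of 7 (0.22 to 0.27, adjusted p between 0.05149 and 0.09397). The count at 12 h was 11 without replicate 3 of cytokines with DMSO.

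Over the 8 groups, the mean of a gene's highest group exceeded that of its lowest by 0.46 at the median, between 0.10 for Mrps30 and 1.27 for Mrpl38. Cytokines with DMSO at 6 h held the lowest mean of 26 members and the highest of 23, so 49 of 73 had an extreme there (67.1%), against 48.8% of all genes and 54.5% of those not dim. Cytokines with BRD0476 at 6 h held the highest of 18 (24.7%, against 10.8% of genes not dim) and the lowest of 1 (1.37%, against 7.04%), and cytokines with DMSO at 12 h held the lowest of 19 (26%, against 26.9%) and the highest of 3 (4.11%, against 11.6%). These shares were not tested. Mrpl4, Mrpl13, Mrpl27, Mrpl32, Mrpl44, Mrpl58, Mrps14, Mrps18a and Mrps30 were called in none of the 4 comparisons of cytokines against none and of BRD0476 against DMSO with cytokines. Of these, Mrps14 had another probe set that fell by 0.63 at 6 h and rose by 0.46 with BRD0476.

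Subunits of the particle with other symbols behaved within the same range. Of 5 measured, Ptcd3, a pentatricopeptide repeat protein, fell with cytokines at 6 h by 0.54 ± 0.09 and Aurkaip1 by 0.25 ± 0.08, and both were higher with BRD0476, by 0.59 and 0.44. Dap3, a GTP-binding protein of the small subunit, had 9.71, 9.69 and 9.79 with cytokines at 12 h, against 9.47, 9.54 and 9.53 with DMSO alone, a rise of 0.22 ± 0.06 (adjusted p = 0.0035). With BRD0476 it fell by 0.26, a call lost in a fit of only the arrays compared (adjusted p = 0.07377). At 6 h its difference was 0.11 and did not pass the test (adjusted p = 0.1331), but did without replicate 2 of cytokines with DMSO (0.16, adjusted p = 0.04256).

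Other genes of mitochondrial gene expression were also split, as were all genes tested. With cytokines at 6 h 24.288% of all genes rose and 27.376% fell, and of those not dim 31.1% rose and 37.1% fell. Of 26 assembly and RNA modification genes, 6 rose (23.077%) and 8 fell (30.769%) at 6 h (median -0.08). At 12 h the 10 called all fell (38.462%, median -0.16). Falls were called at 12 h for 29.943% of all genes and 41.2% of those not dim, and rises for 15.974% and 19.8%. Slirp and Lrpprc, partners that stabilise mitochondrial messages, fell at 6 h by 0.97 ± 0.07 and 0.66 ± 0.09 and were higher with BRD0476 by 1.02 and 0.70. Rpusd4, a pseudouridine synthase, rose by 0.73 ± 0.09. Of 25 translation factors and transfer RNA ligases, 10 rose and 6 fell at 6 h, led by the ribosome recycling factor Mrrf at 0.99 ± 0.08 and the phenylalanine ligase Fars2 at -0.70 ± 0.07. Of 11 genes for mitochondrial DNA, 3 rose and 4 fell: Mterf1, a transcription termination factor, rose by 0.95 ± 0.07 and Ssbp1, which binds single-stranded DNA, fell by 0.54 ± 0.08. Of 24 import genes, which carry these proteins into mitochondria, 6 rose and 10 fell, led by Timm9 at -1.07 ± 0.05.

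Among 11 transcription factors and coactivators known to act on nuclear genes for mitochondrial proteins, 7 rose and 1 fell with cytokines at 6 h. These are 63.636% and 9.091%, against 31.1% and 37.1% of genes not dim. Myc rose by 1.36 ± 0.07 and Nrf1 by 0.87 ± 0.09, and with BRD0476 they were lower by 2.25 and 1.05. At 12 h with cytokines Myc was lower, by 0.51 ± 0.07, and the coactivators Ppargc1b and Ppargc1a fell by 1.03 ± 0.16 and 0.75 ± 0.11. The relation of these factors to the members was not tested. Of 44 cytosolic ribosomal protein genes, whose products form the ribosome of the cytosol, 7 were called with cytokines at 6 h, all higher. That is 15.909%, against 68.3% of genes not dim in either direction. The 44 differences lay within -0.19 to 0.23, with a median of 0.01.

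Markers of identity were also called in the same arrays. With cytokines and DMSO at 6 h, 7 of 10 beta-cell markers fell (70.000%, against 37.1% of genes not dim), led by Nkx6-1, Mafa and Pdx1 by 1.52, 0.69 and 0.56. Abcc8, a subunit of the potassium channel of beta cells, rose by 0.57 (median of the list -0.25). Of 5 other endocrine markers Gcg fell by 0.96. Of 5 endothelial markers Kdr fell by 1.76 and Pecam1 rose by 0.33, of 7 fibroblast markers Pdgfra fell by 1.63 (median 0.03), of 7 leukocyte markers Lyz2 rose by 0.53, and of 7 exocrine and duct markers 1 fell and Krt19 rose by 0.37. The summed intensity of the 5 other endocrine markers, mostly Gcg, was 667.7 to 727.6 with cytokines and DMSO at 6 h, against 1188 to 1452 with DMSO alone, while Sst, Ppy, Ghrl and Pyy were under the median of all values. Leukocyte markers summed to 125.3 to 128 with cytokines and 102.5 to 125.1 without, with all 7 under that median. The fibroblast markers, mostly Thy1, summed to 366.7 to 654.4 with cytokines and 559.2 to 612.7 without. The endothelial ones summed to 67.5 to 74.3 and 98.34 to 120.2. Kdr was the brightest of them on average, and the median difference of that list was 0.09. Those of exocrine and duct cells summed to 100.5 to 115.8 and 104.3 to 127.3. All other endothelial markers, among them Pecam1, and all exocrine and duct markers, among them Krt19, were under the median of all values. The part of these markers in the members' differences was not tested.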

How the data were processed

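RNA of INS-1E cells was measured on 24 Affymetrix arrays, 3 per group. The authors deposited intensity values on a linear scale, made with RMA per the submitters' processing notes. Further settings are not given in the sources used here. The deposited values were taken to log2 with no other normalization. Of 31099 probe sets, 57 are controls, 20832 have one gene symbol, 436 several and 9831 none in the annotation used. One linear model over all 24 arrays with a mean per group was fitted (limma 3.58.1, R 4.3.3), with 16 residual and 3.97 prior degrees of freedom and Benjamini-Hochberg adjustment over 14217 genes in each of 10 comparisons. Calls were made at adjusted p under 0.05. With 3 arrays against 3 an exact two-sided test cannot go below 0.1, so calls rest on the model. A gene was dim when its highest group mean lay under the median of all values. The number of arrays limits the precision: the median SE was 0.07 for members and 0.10 over all genes.

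The members, gene lists and tests were chosen with earlier results of these data known. Named members are up to 8 called per direction without overlap of arrays in the comparisons of cytokines against none in DMSO and of BRD0476 against DMSO with cytokines, and up to 4 in the others (for interactions and differences of effects, whether or not arrays overlap). A panel of Mrpl3, Mrpl12, Mrpl41, Mrpl44, Mrps12, Mrps16, Mrps22, Mrps30 and Dap3 is named whatever its values, and up to 3 called genes per direction from each other list. Mrpl37, Mrpl40, Mrpl46, Mrpl50, Mrpl51, Mrpl55, Mrps14 and the head-to-head neighbours were singled out after their values were seen. The NRF1, IRF and NF-kappaB letters were shortened by 1 after the longer forms had been counted. Promoters and neighbours come from RefSeq GRCr8; the files name no build. The steps were tested on simulated data. Alternatives were array weights, a trend with a robust prior, the mean of probe sets, dim genes left out, quantile normalization, centring, only the arrays compared, a replicate block, and each array left out in turn.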

Additional observations from a re-analysis of the deposited data

Results flagged for a closer look

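These members differed between conditions in their response by a test of the difference itself (limma, adjusted p under 0.05 over all genes, n = 3 arrays per group). For the cytokine effect with BRD0476 against that with DMSO at 6 h, the log2 differences were 1.1131 for Mrpl49, 0.8871 for Mrps17, 0.8261 for Mrps12 and 0.7659 for Mrps21, and -1.2179 for Mrpl38, -0.4650 for Mrpl19, -0.4565 for Mrpl30 and -0.4005 for Mrpl1. At 12 h they were 0.2753 for Mrpl34 and 0.2686 for Mrps33, and -0.9566 for Mrpl30, -0.4452 for Mrpl39, -0.3501 for Mrps34 and -0.2921 for Mrpl3. The call of Mrpl34 was lost when any one of 9 of the 12 arrays was left out, and that of Mrps33 for 7 of them. Both were also lost with centred arrays and with only the arrays compared. For the cytokine effect in DMSO at 12 h against that at 6 h, they were 0.8237 for Mrpl49, 0.7374 for Mrps21, 0.6878 for Mrpl20 and 0.6662 for Mrpl41, and -0.5932 for Mrpl2, -0.5606 for Mrpl36, -0.5507 for Mrps18b and -0.5409 for Mrpl43. Mrpl30 is named for the interaction at both times.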

How the results depend on the processing

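Of the alternative values for named members, 2480 kept the side of the threshold, and the direction wherever a call was made. A change of sign between values that were not called counts among these. A further 65 lost the call, 26 gained one and 1 reversed with a call. The reversal was that of Mrpl12 in the change of the cytokine effect with time, at 0.4042 with the mean of its probe sets. With array weights the members called were 1 and 10 for BRD0476 without cytokines at 6 and 12 h, 13 for the interaction at 12 h and 4 for untreated cells. With the mean of probe sets 0 were called for BRD0476 without cytokines at 12 h (limma, 10 at an unadjusted p under 0.05 in the reported fit), and with dim genes left out 10 for the interaction at 12 h. With only the arrays compared, 3 were called for BRD0476 with cytokines at 12 h and 0 for untreated cells. The median interaction was 0.0888 at 6 h with the mean of probe sets, and 0.0048 at 6 h and -0.0244 at 12 h with centred arrays. With one array left out, the median for BRD0476 with cytokines at 6 h ranged over 0.044 to 0.1396, the interaction count at 12 h over 4 to 11, and the count for untreated cells was 0. Calls over all genes moved by over 1.5 times for BRD0476 without cytokines at 6 h (1123 with array weights, 108 with only the arrays compared, 286 to 297 without one array) and at 12 h (1929 with weights, 360 to 431 without one array), for untreated cells (1545 with weights, 97 with only the arrays compared, 132 to 147 without one array) and for BRD0476 with cytokines at 12 h (2379 with only the arrays compared). The causes were not tested.

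Whether replicate numbers pair the arrays was not settled. Of 84 same-number pairs, 21 had deviations correlated over 0.1. The median was -0.0417, against 0.0076 for other numbers, and same-number pairs ranged from -0.4779 to 0.7223. Of the 24 arrays, 12 correlated best with their own number. With the replicate block, 49 and 39 members were called for cytokines at 6 and 12 h, 47 and 24 for BRD0476 with cytokines, 0 and 1 without cytokines, 34 and 6 for the interaction, 31 for the change with time and 0 for untreated cells.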

Other observations

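Mrpl38 had the widest spread between arrays of a group among the 73 genes, with an SD of 0.597 with cytokines and DMSO at 6 h, 0.4671 with cytokines and DMSO at 12 h and 0.4005 with cytokines and BRD0476 at 12 h. In each of these groups a single array was low: 7.84 beside 8.89 and 8.87, 7.56 beside 8.36 and 8.37, and 7.62 beside 8.34 and 8.28. Without cytokines at 12 h its arrays lay between 7.20 and 7.50. The next widest spread was that of Mrps27 with cytokines and DMSO at 12 h, with an SD of 0.2698 and a single low array.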
